A study of Mus musculus with 32 samples.

Results

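The loci of 4 genes that mark hepatocytes, Alb (gene ID 11657), Apoa1 (11806), Ttr (22139) and Hnf4a (15378), were examined in the open chromatin of liver cells that are not hepatocytes. Each locus was taken as a fixed window of the mm9 genome, 70 to 130 kb long, and every ATAC-seq peak with its centre in a window was a member. The windows were chr5:90860001-90940000 for Alb, chr9:46000001-46070000 for Apoa1, chr18:20790001-20860000 for Ttr and chr2:163300001-163430000 for Hnf4a. They held 40 of the 91453 peaks deposited for liver endothelial cells and 70 of the 137684 deposited for Kupffer cells, the macrophages resident in the liver. ATAC-seq uses a transposase to cut and tag accessible DNA, and the lists hold peaks of nucleosome-free regions.

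The study comprised 32 libraries from male C57BL/6J mice on normal chow, 16 from endothelial cells and 16 from Kupffer cells. The groups of each cell type were wild type and double knockout of REV-ERB a/b, a pair of clock repressors deleted in adult hepatocytes, each at zeitgeber times ZT10 and ZT22 and with 4 replicates. How the deletion was driven, and whether replicates were single mice or pools, is not given in the sources used here. Each cell type has 1 list over all its groups, with positions and no height, count or library of origin, so the depth is unknown, effects of genotype or time of day were not analysed here, and every value stands without replicates. The identity of the cells was not checked at marker genes, because the gene table at hand is on GRCm38.p6 and the lists are on mm9.

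Hepatocytes make most of the proteins of blood plasma. Alb encodes albumin, the main plasma protein, Apoa1 encodes the main apolipoprotein of high-density lipoprotein, and Ttr encodes transthyretin, a carrier of thyroid hormone and of the retinol-binding protein. Hnf4a encodes HNF4-alpha, a nuclear receptor that sustains transcription of many hepatocyte genes, alongside HNF1 and the FOXA factors. Endothelial cells line the sinusoids and Kupffer cells clear particles from the blood; neither is known for making albumin. Peaks in these windows therefore show how far stretches around hepatocyte genes were called open in preparations of the other cell types. No peak was assigned to a gene, so a count need not belong to the hepatocyte gene rather than to its neighbours. The part that hepatocytes left in those preparations may play in the counts was not tested.

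The sequence before the transcription start is shown for 3 of the genes, because such stretches can hold the letters through which liver factors are known to act. Ttr was left out of this display and of the counts of letters, which therefore say nothing about its promoter. The sequences are the 250 bases before the start in RefSeq, on the plus strand of GRCm38.p6, at chr5:90460620-90460869 (Alb), chr9:46228380-46228629 (Apoa1), and chr2:163506607-163506856 and chr2:163546905-163547154 (the upstream and the downstream start of Hnf4a). These positions are on another build than the peaks, and whether a peak covers them was not determined. Capitals mark matches on either strand to GTTAAT (an HNF1 core), AGNNCA followed directly by NNGNNCA (a direct repeat as bound by HNF4), TGTTTNC (a FOXA site) and CCAAT (the CCAAT box). No match overlapped another.
Alb: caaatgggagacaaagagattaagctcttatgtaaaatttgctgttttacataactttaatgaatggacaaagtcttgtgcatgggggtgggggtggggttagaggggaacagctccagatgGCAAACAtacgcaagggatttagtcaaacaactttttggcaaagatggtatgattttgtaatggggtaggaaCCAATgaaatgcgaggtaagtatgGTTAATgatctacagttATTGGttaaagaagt
Apoa1: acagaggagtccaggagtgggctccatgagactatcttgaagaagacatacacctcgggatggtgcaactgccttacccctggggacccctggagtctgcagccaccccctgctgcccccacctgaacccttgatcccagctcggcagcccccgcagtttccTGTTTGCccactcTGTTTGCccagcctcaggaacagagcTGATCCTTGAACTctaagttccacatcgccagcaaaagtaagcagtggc
Hnf4a, upstream start: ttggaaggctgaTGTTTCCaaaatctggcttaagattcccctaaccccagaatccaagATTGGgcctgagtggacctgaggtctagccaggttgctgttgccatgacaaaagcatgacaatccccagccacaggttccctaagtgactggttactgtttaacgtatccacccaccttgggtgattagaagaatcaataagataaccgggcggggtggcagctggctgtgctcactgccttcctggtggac
Hnf4a, downstream start: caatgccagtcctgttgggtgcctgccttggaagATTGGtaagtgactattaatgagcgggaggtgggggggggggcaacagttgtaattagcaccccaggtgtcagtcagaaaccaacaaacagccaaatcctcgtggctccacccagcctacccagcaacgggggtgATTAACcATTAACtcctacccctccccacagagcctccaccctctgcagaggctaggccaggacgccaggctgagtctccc

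The HNF1 core was found 1 time before Alb, 32 to 27 bases ahead of the start, and 2 times before the downstream start of Hnf4a, 81 to 76 and 74 to 69 bases ahead. Of 32851 RefSeq promoter stretches of the same length, 6.43% held it. The HNF4 repeat, present in 5.18% of them, was found before Apoa1 only among the 4 sequences, 49 to 37 bases ahead of the start. The FOXA letters, present in 17.8%, occurred 2 times before Apoa1, and 1 time each before Alb and the upstream start of Hnf4a. The CCAAT box, present in 33.8%, occurred 2 times before Alb and 1 time before each start of Hnf4a. A match is a run of letters and not a measured binding site.

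Both cell types had peaks in all 4 windows, and the windows fell into 2 fuller and 2 sparser ones. The Alb window was close to the genome mean, though above the median window of its length. The windows of Apoa1 and Hnf4a were among the fullest few percent of windows of their length in both lists. For Kupffer cells this rests on peaks of 151 bp, the most frequent width in the endothelial list. Without them 16.9% of windows were as full as that of Apoa1 and 8.37% as full as that of Hnf4a. Narrower peaks exist, down to 54 bp in the endothelial and 30 bp in the Kupffer list. Over all 350 kb the endothelial list held 40 peaks where the mean density of chromosomes 1 to 19 and X would give 12.4, a ratio of 3.22 (95% exact Poisson interval 2.30 to 4.38). The Kupffer list held 70 where 18.7 would be given, a ratio of 3.74 (2.92 to 4.73). These intervals cover counting error only and treat peaks as independent, which neighbouring peaks need not be.

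**Figure D1:**
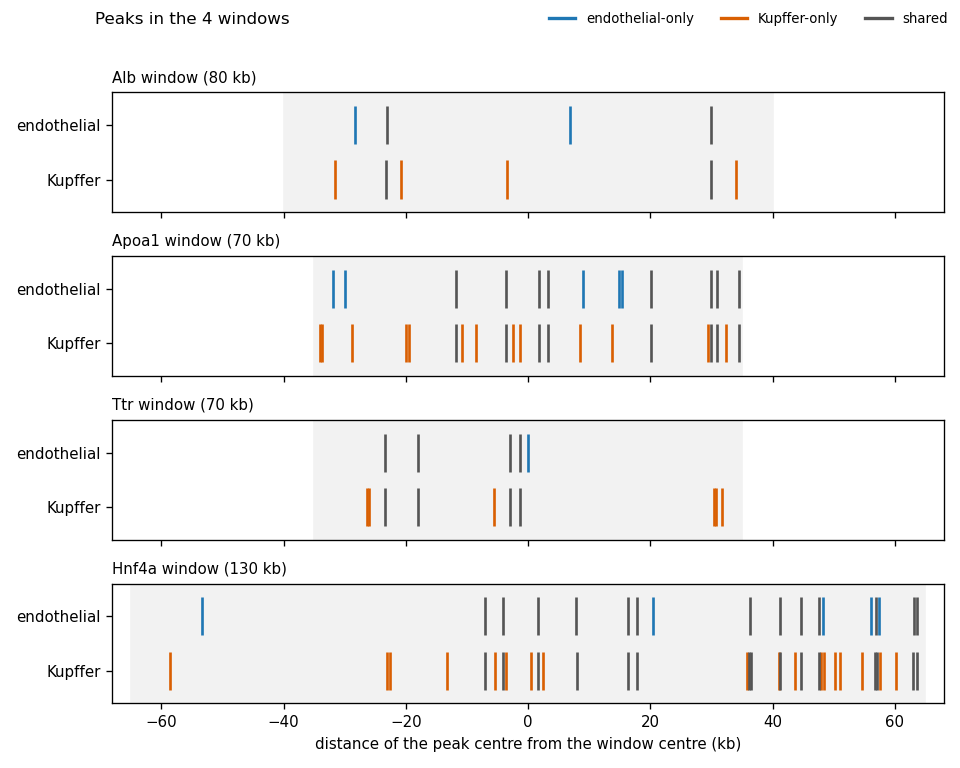
Peaks of the endothelial and Kupffer lists in the 4 windows, placed by the distance of their centres from the window centre in kb; each line is 1 peak, coloured by whether it was shared (overlap of at least 1 bp), endothelial-only or Kupffer-only, and grey marks the window. The Apoa1 window holds 13 endothelial and 21 Kupffer peaks along its whole length, and the Alb window 4 and 6.

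The Alb window, 80 kb long, held 4 endothelial and 6 Kupffer peaks. The genome means of 3.55 endothelial and 5.34 Kupffer peaks per 100 kb compare with 5 and 7.5 here, 1.41-fold (0.384 to 3.61) and 1.40-fold (0.515 to 3.05), and both intervals include the mean. Of 32159 non-overlapping windows of 80 kb, 28.9% had at least as many endothelial peaks and 29.4% at least as many Kupffer peaks. The median window of this length had 1 peak of each list, and 42.5% had no endothelial and 42.0% no Kupffer peak. The 2 endothelial-only peaks were matched or exceeded in 26.2% of windows, the 4 Kupffer-only peaks in 28% and the 2 shared endothelial peaks in 32.9%.

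All peaks of the Alb window can be placed. The first shared site was covered by an endothelial peak at chr5:90876806-90876964 (159 bp wide) and a Kupffer peak at chr5:90876728-90876878 (151 bp). The second was covered from 90929883 to 90930088 in endothelial cells (206 bp) and from 90929883 to 90930093 in Kupffer cells (211 bp), with centres 2.5 bp apart. Both endothelial-only peaks, at chr5:90871634-90871784 and chr5:90906861-90907011, were 151 bp wide. The widest Kupffer-only peak, at chr5:90933758-90934166, spanned 409 bp, and the other 3 were 151 bp wide. Between 90907012 and 90929882, a stretch of 22871 bp, neither list had a peak. In gene order, Ankrd17 precedes Alb, and Afp and Afm, the genes of the related plasma proteins alpha-fetoprotein and afamin, follow it.

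The Apoa1 window, 70 kb long, held 13 endothelial and 21 Kupffer peaks, or 18.6 and 30 per 100 kb. These densities were 5.23-fold (2.79 to 8.95) and 5.61-fold (3.47 to 8.58) the genome means, with both intervals above the mean. Only 2.9% of 36755 windows of 70 kb had at least as many endothelial peaks, and 1.41% at least as many Kupffer peaks. The median window of this length had 1 peak of each list, and the fullest had 28 endothelial and 36 Kupffer peaks. The 5 endothelial-only peaks were matched or exceeded in 5.75% of windows, the 13 Kupffer-only peaks in 2.04% and the 8 shared endothelial peaks in 3.62%. None of the 7 bins of 10 kb in the window lacked a peak, where 68.5% of 257336 bins of the genome had none. The other windows were below the genome too, with 25% of bins empty at Alb, 28.6% at Ttr and 23.1% at Hnf4a.

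Shared sites in the Apoa1 window began 23280 bp from its start and reached almost to its end. They were centred 23280, 31440, 36774, 38198, 55110, 65000, 65902 and 69462 bp from the window start in the endothelial list. The site at chr9:46036700-46036850 in endothelial cells was 151 bp wide in both lists, with centres 2 bp apart. The widest shared site in Kupffer cells lay at chr9:46038067-46038356 (290 bp) and matched an endothelial peak of 267 bp at chr9:46038065-46038331. Another close match, of 259 bp at chr9:46065774-46066032 in endothelial cells and 279 bp in Kupffer cells, also had centres 2 bp apart.

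Restricted peaks at Apoa1 were of unlike width in the 2 lists. Of the 5 endothelial-only peaks 4 were over 250 bp wide, led by chr9:46004858-46005381 with 524 bp. Over all endothelial-only peaks of the list 17.5% were that wide. Of the 13 Kupffer-only peaks 2 were over 250 bp wide, against 11.6% in their list. A width of 151 bp was found in 9 of these 13, against 27.4% of all Kupffer-only peaks. The widest, at chr9:46043278-46043599, had 322 bp and lay 272 bp from an endothelial-only peak. A pair of endothelial-only peaks at chr9:46049782-46050102 and chr9:46050209-46050470 had its nearest Kupffer peak 909 bp from the first and 1336 bp from the second. In gene order Sik3, a salt-inducible kinase gene, precedes Apoa1, and the apolipoprotein genes Apoc3 and Apoa4 follow it. Which of the peaks lie in these genes was not determined, since the annotation is on another build.

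The Ttr window, also 70 kb, held 5 endothelial and 10 Kupffer peaks, 7.14 and 14.3 per 100 kb. The endothelial density was 2.01-fold the genome mean with an interval that includes it (0.653 to 4.70), and the Kupffer density 2.67-fold with an interval above it (1.28 to 4.92). At least as many peaks were found in 20.7% of windows of 70 kb for endothelial and 14.4% for Kupffer cells. The 1 endothelial-only peak was matched or exceeded in 41.3% of windows, the 6 Kupffer-only peaks in 16% and the 4 shared endothelial peaks in 15.5%.

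Most peaks around Ttr lay in the first part of the window. The endothelial peaks ended near the middle of the window, and the last 34895 bp held none. A group of 3 lay close together at chr18:20822010-20822160, chr18:20823684-20823834 and chr18:20824955-20825105, each 151 bp wide; the first 2 were shared and the last was the only endothelial-only peak, 1153 bp from the nearest Kupffer peak. The widest endothelial peak, shared, was that of 223 bp at chr18:20806951-20807173, and the remaining shared one was that of 180 bp at chr18:20801540-20801719. Of the 6 Kupffer-only peaks 3 lay within 2764 bp of an endothelial peak. The other 3 lay at the far end, over 15 kb from any endothelial peak, among them the widest at chr18:20855664-20855880 (217 bp). In gene order Dsg2, a desmosomal cadherin gene, precedes Ttr and B4galt6, a galactosyltransferase gene, follows it.

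The Hnf4a window, 130 kb long, held 18 endothelial and 33 Kupffer peaks, 13.8 and 25.4 per 100 kb. These densities were 3.90-fold (2.31 to 6.17) and 4.75-fold (3.27 to 6.67) the genome means. Of 19788 windows of 130 kb, 5.29% had at least as many endothelial peaks and 1.94% at least as many Kupffer peaks. The 5 endothelial-only peaks were matched or exceeded in 14.4% of windows, the 18 Kupffer-only peaks in 4.06% and the 13 shared endothelial peaks in 3.53%. These restricted counts depended on how peaks were matched and joined. Endothelial-only peaks numbered 2 with peaks within 500 bp joined or counted as shared and 8 with a mutual overlap of 50%, and Kupffer-only peaks numbered 11 with peaks joined and 9 without those of 151 bp. The median window of this length had 2 endothelial and 3 Kupffer peaks.

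Peaks at Hnf4a gathered in the later part of the window. The first 41 kb held 1 endothelial-only peak and 1 Kupffer-only peak, each 151 bp wide, and the last 3 bins of 10 kb held 3, 2 and 5 endothelial and 7, 6 and 6 Kupffer peaks. The widest endothelial peaks were shared. That at chr2:163428333-163428790 had 458 bp, and those at chr2:163401110-163401508 (399 bp) and chr2:163421722-163422131 (410 bp) each overlapped 2 Kupffer peaks. The other 10 shared endothelial peaks were 151 to 285 bp wide and were centred 57924, 60944, 66586, 72880, 81368, 82778, 106266, 109722, 112664 and 128098 bp from the window start. The widest endothelial-only peak lay at chr2:163421030-163421290 (261 bp), and the widest Kupffer-only peak at chr2:163342230-163342619 (390 bp) was 15201 bp from any endothelial peak. At 2 places an endothelial-only and a Kupffer-only peak missed each other narrowly, with gaps of 5 and 23 bp. In gene order R3hdml precedes Hnf4a and Ttpal follows it.

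**Figure D2:**
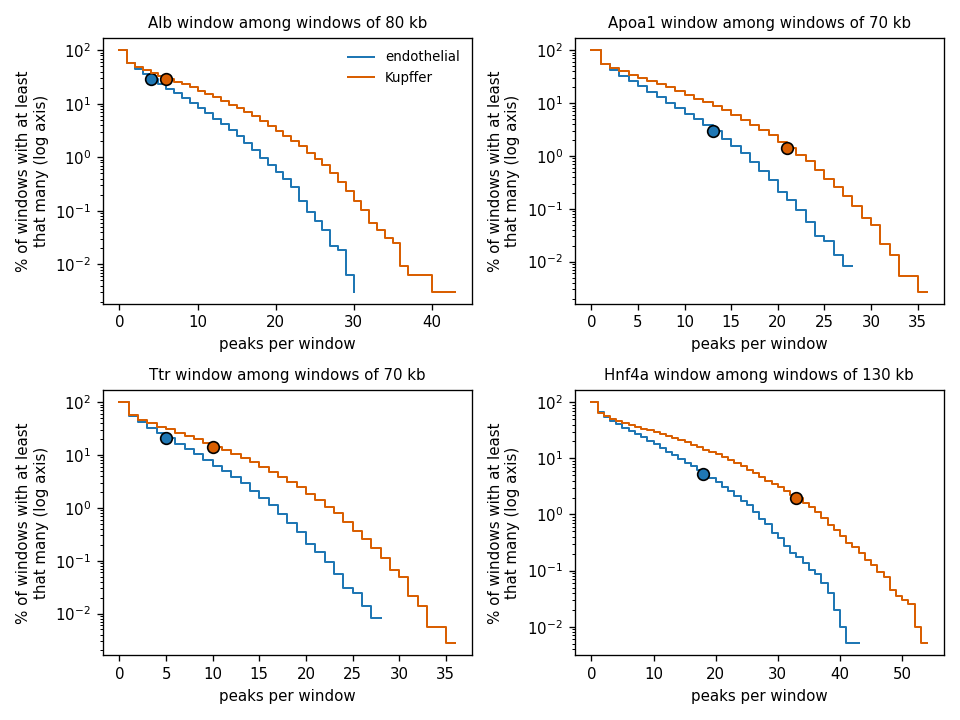
Percent of all non-overlapping windows of the same length on chromosomes 1 to 19 and X (log axis) that held at least the number of peaks on the horizontal axis, for endothelial and Kupffer peaks; filled circles mark the window of each gene. The Apoa1 circles lie at 2.9% and 1.41% and those of Alb at 28.9% and 29.4%.

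With all peaks kept, both lists ranked the windows alike by density, with Apoa1 highest, then Hnf4a, Ttr and Alb. Without peaks of 151 bp the Kupffer list put Hnf4a, at 3.50-fold the genome mean, above Apoa1, at 2.53-fold. Neighbours in that order had overlapping intervals. In the Kupffer list the interval of Alb (0.515 to 3.05) ended below those of Apoa1 (3.47 to 8.58) and Hnf4a (3.27 to 6.67). In the endothelial list all 4 intervals overlapped. These intervals hold with all peaks kept. Whether the Kupffer windows stay apart without peaks of 151 bp, which leaves 2 Kupffer peaks at Alb, was not tested.

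The density did not stop at the window borders in every case. The 80 kb before the Alb window held 9 endothelial and 13 Kupffer peaks, more than the window itself, and the 80 kb after it held 3 of each, all shared. At Apoa1 the Kupffer count of 21 compared with 5 in the 70 kb before and 11 in the 70 kb after, and the endothelial count of 13 with 10 and 5. Of the 10 endothelial peaks before the Apoa1 window 8 were endothelial-only. At Ttr the windows beside it held 6 and 8 endothelial and 5 and 13 Kupffer peaks, so that the member window lay within their range in the Kupffer list and just below it in the endothelial one. The 130 kb after the Hnf4a window, with 20 endothelial and 34 Kupffer peaks, were as full as the window, and the 130 kb before it held 4 and 9.

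**Figure D3:**
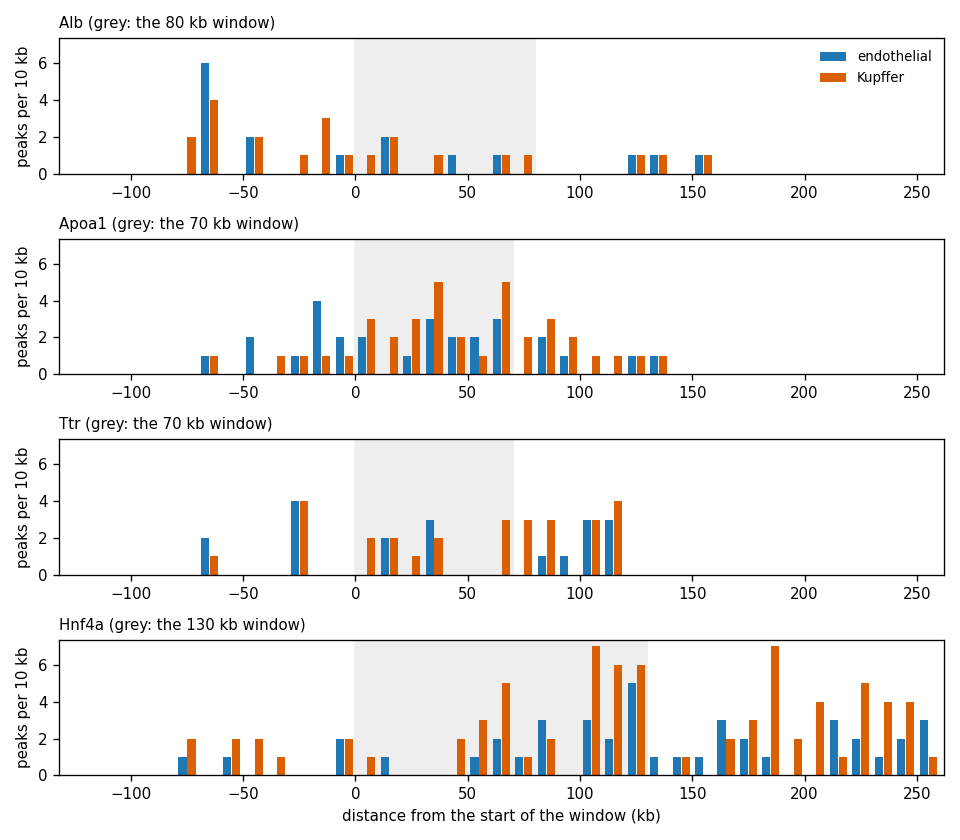
Peaks per 10 kb bin across each window (grey) and the stretches of equal length on either side, against the distance from the window start in kb, for the endothelial and Kupffer lists. Bins around Alb hold at most 2 peaks of a list inside the window, and those at the end of the Hnf4a window up to 7 Kupffer peaks.

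Sharing between the cell types in these windows lay near that of the whole lists. Of the 40 endothelial peaks 27 or 67.5% (95% exact binomial interval 50.9% to 81.4%) overlapped a Kupffer peak, against 58.3% of all endothelial peaks. Of the 70 Kupffer peaks 29 or 41.4% (29.8% to 53.8%) overlapped an endothelial peak, against 39.1% of all. By window the shared part of endothelial peaks was 2 of 4 at Alb, 8 of 13 at Apoa1, 4 of 5 at Ttr and 13 of 18 at Hnf4a, and each interval included the value of the whole list. In windows at least as full of endothelial peaks, 59.5%, 58.2%, 59.5% and 58.8% of endothelial peaks were shared, in the same order. There were 1.75 Kupffer peaks per endothelial peak in the 4 windows (1.17 to 2.65) and 1.51 in the lists. That interval treats all peaks as independent, although shared sites count in both lists, so it is only a rough guide. Endothelial-only peaks were 13 of the 54 restricted peaks, or 24.1% (13.5% to 37.6%), against 31.2% in the lists.

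For comparison, the most one-sided windows of the genome are given, which were picked for their counts and serve as a description. The 100 kb with the most endothelial-only peaks, chr17:74100001-74200000, held 25 endothelial peaks of which 2 were shared. The 100 kb with the most Kupffer-only peaks, on chromosome 19, held 41 Kupffer peaks of which 4 were shared. Apoa1 and Hnf4a, with 18.6 and 13.8 endothelial and 30 and 25.4 Kupffer peaks per 100 kb, were full in both lists at once. How many other windows are full in both lists was not counted, so this is not shown to be particular to them.

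Shared peaks lay at nearly the same bases. The 29 overlapping pairs had a median distance of 27 bp between centres, against 25 bp over 54534 pairs of the lists, and the largest distance was 153.5 bp at Hnf4a. In 5 of the 29 pairs, or 17.2% (5.85% to 35.8%), both peaks were 151 bp wide, against 14.1% of all pairs.

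Kupffer peaks in the windows were more often 151 bp wide than Kupffer peaks at large. Of 70 Kupffer peaks 38 or 54.3% (41.9% to 66.3%) were 151 bp wide, against 26.0% of the whole list. The share was 4 of 6 at Alb, 14 of 21 at Apoa1, 5 of 10 at Ttr and 15 of 33 at Hnf4a, above the list's value in all 4, with an interval above it at Apoa1 (43.0% to 85.4%) and Hnf4a (28.1% to 63.6%). It was high in shared Kupffer peaks (15 of 29, 51.7%, against 23.9% in the list) as well as in Kupffer-only peaks (23 of 41, 56.1%, against 27.4%). Of the endothelial peaks of the windows 13 of 40 or 32.5% (18.6% to 49.1%) had that width, against 34.5% of their list. By window these were 2 of 4 at Alb, 4 of 13 at Apoa1, 3 of 5 at Ttr and 4 of 18 at Hnf4a, above the list's value at Alb and Ttr and below it at Apoa1 and Hnf4a, and each interval included it. Among endothelial-only peaks of the windows 7 of 13 or 53.8% (25.1% to 80.8%) had it, against 44.6% in the list. The widths played no part in the choice of the windows, but this measure was singled out after its values were seen.

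Windows as full as those of Apoa1 and Hnf4a had fewer such narrow Kupffer peaks. In the 520 windows of 70 kb with at least 21 Kupffer peaks, 21.0% of Kupffer peaks were 151 bp wide, and none of those windows reached the 66.7% of Apoa1. In the 383 windows of 130 kb with at least 33 Kupffer peaks the share was 21.4%, and 4 of them, or 1.04%, reached the 45.5% of Hnf4a. For Ttr 4.60% and for Alb 2.91% of the windows as full reached the share of the member window, which rests on 10 and 6 peaks. In the endothelial list 51.5% of the windows as full reached the share of Apoa1, 78.5% that of Hnf4a, 11.4% that of Ttr and 25.2% that of Alb. What sets a width of 151 bp is not given in the sources used here, and the part that depth or the merging of libraries plays in it was not tested.

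**Figure D4:**
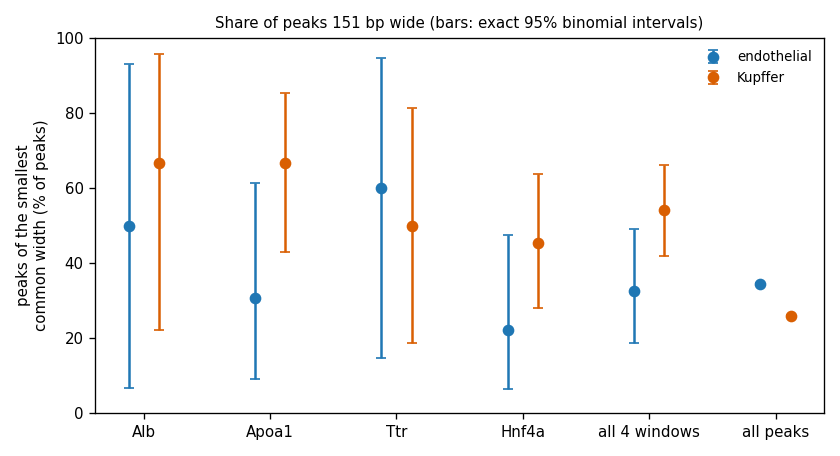
Percent of peaks 151 bp wide in each window, in the 4 windows together and in the whole lists, for endothelial and Kupffer peaks; points are shares and bars exact 95% binomial intervals. Kupffer peaks of the 4 windows stand at 54.3% against 26.0% in their list, and endothelial peaks at 32.5% against 34.5%. The axis label, smallest common width, stands for 151 bp, the most frequent width of the endothelial list and not the smallest.

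Kupffer counts at all 4 windows depended on these narrow peaks, and endothelial counts did so at Alb and Ttr. Without them 9 of 13 endothelial peaks were left at Apoa1 and 14 of 18 at Hnf4a, within 1.5 times the full counts. With peaks of 151 bp left out of both lists, the Apoa1 window held 7 Kupffer peaks, 2.53-fold the genome mean, and 16.9% of windows had at least as many. The Hnf4a window then held 18 Kupffer peaks at 3.50-fold, with 8.37% of windows as full, the Ttr window 5 at 1.81-fold, with 24.2%, and the Alb window 2 at 0.632-fold, below the mean, with 41.5%. The endothelial density was 5.53-fold at Apoa1 and 4.63-fold at Hnf4a, with 3.28% and 4.01% of windows as full. It was 1.23-fold at Ttr and 1.07-fold at Alb, where 2 endothelial peaks each were left and 32.6% and 35.1% of windows were as full. Kupffer-only peaks then numbered 5 at Apoa1 and 1 at Alb, and endothelial-only peaks 1 at Alb. Endothelial-only peaks numbered 7 at Apoa1 and 6 at Hnf4a, against 5 at each with all peaks kept. Peaks whose partner was left out no longer counted as shared. Absence from a list means only that the site was not called in that cell type.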

How the data were processed

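Chromatin accessibility was measured by ATAC-seq in 32 libraries of endothelial and Kupffer cells. The authors deposited 1 list of nucleosome-free-region peaks per cell type, with chromosome, start and end alone. Per the submitters' processing notes the tools included Bowtie and HOMER and the build was mm9; no versions are stated, and threshold, transposase offset, fragment selection and merging of libraries were not given in the sources used here. Depth is unknown, so precision is given by intervals for counting error only.

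Peaks were assigned to windows by their centres and called shared at an overlap of at least 1 bp (Python 3.11.15, NumPy 2.4.6; counts of shared peaks equalled those of bedtools 2.31.1). Density was set beside the mean over 2574 Mb, from the first to the last peak of chromosomes 1 to 19 and X, and beside all non-overlapping windows of equal length. Exact 95% intervals came from SciPy 1.17.1. No p-value was computed, since peaks and windows are not replicates. Overlaps and window counts were tested on simulated data. Every shared peak and the widest restricted peak of each kind were to be named or placed; neighbours are the nearest protein-coding genes by order on GRCm38.p6. Alternatives covered the overlap rule, joining, widths, window borders and the background windows. The windows, motifs and measures were chosen with earlier results of these data known. No column of a single sample was present.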

Additional observations from a re-analysis of the deposited data

How the results depend on the processing

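Leaving out peaks of 151 bp gave 2 endothelial, 2 Kupffer and 1 shared endothelial peak at Alb, 7 Kupffer and 2 shared endothelial peaks at Apoa1, 2 endothelial, 5 Kupffer and 1 shared endothelial peak at Ttr, and 18 Kupffer and 8 shared endothelial peaks at Hnf4a, and took the Kupffer density at Apoa1 to 2.53-fold the genome mean; this setting removes peaks by construction. Requiring that each peak be covered to at least 50% by the other left 1 shared endothelial peak at Alb. Of 84 alternative counts 65 stayed within 1.5 times the reported one. Of 64 alternative densities 63 stayed within the interval of the reported one, but such intervals are wide where peaks are few. At Alb the Kupffer density went from 1.40-fold to 0.632-fold and still lay within its interval of 0.515 to 3.05. Of 72 alternative percents of windows at least as full, 18 stayed within the counting interval of the reported one and 54 did not. Density ratios ran from 0.923 to 1.88 (endothelial) and 0.632 to 1.76 (Kupffer) at Alb, 3.32 to 5.84 and 2.53 to 6.04 at Apoa1, 1.23 to 2.82 and 1.70 to 2.93 at Ttr, and 2.82 to 4.63 and 3.43 to 4.75 at Hnf4a. Not all are over the genome mean. The lows 0.923, 3.32, 1.70, 2.82 (Hnf4a) and 3.43 are over the mean of windows with at least 1 peak. The 2.93 at Ttr is over the mean of its chromosome, and 5.84 at Apoa1 is by base pairs covered. Over the genome mean the endothelial density at Alb was lowest at 1.07-fold, without peaks of 151 bp. The percent of windows at least as full ran from 22.6% to 44.1% and 25.2% to 44.9% at Alb, 1.65% to 5.43% and 0.599% to 16.9% at Apoa1, 14.1% to 32.6% and 12.5% to 24.2% at Ttr, and 3.68% to 8.44% and 1.89% to 8.37% at Hnf4a. Of these, 44.1% and 44.9% are percents of windows with at least 1 peak, and 12.5% of windows on the same chromosome. The 3.68% at Hnf4a is by base pairs covered. The setting of windows as full for widths and sharing was chosen after seeing the data. No paired analysis was possible because each list merges all libraries of its cell type; leaving out replicates and a stricter peak threshold were not run either, as libraries and scores are not separated in the lists. The unknown depth limits what an uncalled site can mean.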
